A study of Homo sapiens with 12 samples.

Results

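The cornified envelope precursors are the proteins that a keratinocyte cross-links under its membrane in its last step of differentiation. The 10 genes IVL, SPRR1A, SPRR1B, SPRR2A, SPRR2D, SPRR3, TGM1, PPL, EVPL and CSTA were taken by gene name from the tables of 2 oral squamous carcinoma cell lines, which together list 34227 genes. Of these, 5 had a row in SCC15 and 9 in SCC25. SPRR3 had no row in either table, and IVL, SPRR1A, SPRR1B and SPRR2A had none in SCC15, so those values were not analysed here. A gene was tested where its normalized count averaged at least 10 over the 6 libraries of a cell line, which left CSTA, PPL, EVPL and TGM1 in SCC15, and these with SPRR1B, SPRR2A and SPRR2D in SCC25.

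RNA-seq was made from SCC15 and SCC25 cells, both labelled as wild type and as oral squamous cells, after 24 h with squamocin or with the solvent DMSO. The labels call the treatment ACGs, for annonaceous acetogenins, the plant polyketides to which squamocin belongs. Each of the 4 groups had 3 libraries, 12 in all, and each cell line stands for 1 tumour-derived line in culture. The labels do not say that the libraries came from separate cultures, so the p-values measure the spread between these libraries, which may be technical. The comparison asked how the RNA of each precursor differed between squamocin and DMSO, in each line and between the lines.

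In stratified epithelia, plakin proteins such as periplakin and envoplakin are laid down first under the membrane, with involucrin. Transglutaminase 1 then joins these proteins, cystatin A and the small proline-rich proteins by bonds between glutamine and lysine residues. In the epidermis and the lining of the mouth the result is a stiff, insoluble shell, and the small proline-rich proteins act as bridges within it. Involucrin and the small proline-rich proteins are encoded near each other on chromosome 1, in the epidermal differentiation complex (EDC). In squamous carcinomas these genes are used as markers of squamous differentiation.

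With squamocin, SCC25 cells had more RNA of CSTA, SPRR1B, SPRR2A and SPRR2D than with DMSO, and less of PPL and TGM1. SCC15 cells also had more of CSTA and less of PPL and TGM1, and less of EVPL as well. The plakin PPL was 2.58-fold lower with squamocin in SCC25 and 1.71-fold lower in SCC15, whereas CSTA was 3.09-fold and 3.15-fold higher, as ratios of group means. The SPRR transcripts had at most 4 reads in any SCC25 library with DMSO and at most 114 with squamocin.

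The libraries held from 16665563 to 22748845 reads assigned to genes. The third squamocin library of SCC15 stood apart from the other two: its genes with an exonic length of 1 to 2 kb lay 0.48 higher on the log2 scale at the median, and those of 5 kb and over lay 0.090 lower. The exonic length is 1366 bases for CSTA, and 7699 and 7364 bases for PPL and EVPL. The members' SCC15 log2 fold changes are therefore also given without that library. All 10 squamous markers had rows in both lines, but KRT5, TP63, DSG3 and EPCAM were at or below 22.7 normalized counts in every SCC15 library, where KRT17 was at 109182 or more. The summed level of the squamous markers was 228727 to 391608 with squamocin and 121311 to 127487 with DMSO in SCC15, where 4 of the 8 tested were higher and 0 lower. In SCC25 it was 52116 to 53327 against 30612 to 30849, with 7 higher and 2 lower of 10 tested. The summed level of 8 immune markers in SCC25 was 19.1 to 32.2 with squamocin and 342 to 434 with DMSO, where CD14 alone had 306 to 393, and PTPRC and CD3D had no row. That of 4 endothelial markers was 19.8 to 37.7 against 233 to 296 in SCC25 and 66.1 to 77.1 against 158 to 178 in SCC15. In SCC15 the immune sum was 322 to 506 against 509 to 547, with PTPRC at no more than 3.95. The sum of 8 fibroblast markers was 486 to 491 against 723 to 795 in SCC15 and 1075 to 1229 against 777 to 816 in SCC25, and that of 4 melanocyte markers was 31.3 to 52.4 against 45.4 to 52.2 and 62.3 to 77.7 against 132 to 147. The part of these markers in the values below was not tested. In bulk RNA, fewer cells that express a gene and less of its RNA per cell cannot be told apart.

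The small proline-rich proteins are short, repeat-built bridges of the envelope, and SPRR1A, SPRR3, SPRR1B, SPRR2D and SPRR2A lie in this order, to the right of IVL on chromosome 1 of GRCh38. In SCC25 nearly all SPRR reads came with squamocin and all IVL reads with DMSO, so the stretches before their start sites are shown. RefSeq start sites on GRCh38.p14 were found for 5 of the 10 members: IVL, SPRR1A, SPRR1B, SPRR2A and SPRR3. The 250 bases before the start are printed 5′ to 3′ for the first 4 of these. They run over chr1:152908296-152908545 for IVL, chr1:152983831-152984080 for SPRR1A and chr1:153030953-153031202 for SPRR1B, on the plus strand, and over chr1:153057513-153057762 for SPRR2A, on the minus strand. Capitals mark TGANTCA, the letters bound by AP-1 factors, and TATAAA, the TATA box.

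IVL: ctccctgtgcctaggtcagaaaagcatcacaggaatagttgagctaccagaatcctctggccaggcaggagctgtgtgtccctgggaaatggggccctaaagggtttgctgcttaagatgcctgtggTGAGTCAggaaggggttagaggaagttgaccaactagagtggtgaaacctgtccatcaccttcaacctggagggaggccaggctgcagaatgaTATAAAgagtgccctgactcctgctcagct
SPRR1A: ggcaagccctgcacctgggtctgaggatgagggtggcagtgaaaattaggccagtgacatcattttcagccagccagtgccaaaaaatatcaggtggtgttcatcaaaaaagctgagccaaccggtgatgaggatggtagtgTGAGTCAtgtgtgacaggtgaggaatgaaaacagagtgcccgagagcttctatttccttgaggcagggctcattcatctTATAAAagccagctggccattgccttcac
SPRR1B: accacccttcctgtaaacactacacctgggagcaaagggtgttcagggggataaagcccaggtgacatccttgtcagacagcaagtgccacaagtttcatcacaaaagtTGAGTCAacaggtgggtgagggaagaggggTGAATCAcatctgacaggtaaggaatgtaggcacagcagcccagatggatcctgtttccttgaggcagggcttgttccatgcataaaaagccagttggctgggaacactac
SPRR2A: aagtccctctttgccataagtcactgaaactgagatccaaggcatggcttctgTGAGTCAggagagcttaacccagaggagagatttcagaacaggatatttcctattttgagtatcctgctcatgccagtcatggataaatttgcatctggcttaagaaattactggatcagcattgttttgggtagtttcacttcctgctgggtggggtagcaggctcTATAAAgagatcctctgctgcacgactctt

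All 5 promoters held TGANTCA on either strand, as did 6.57% of the 35116 RefSeq promoters searched over the same 250 bases. The match began 123 bases before the start in IVL, 108 in SPRR1A, 197 in SPRR2A and 170 in SPRR3, and SPRR1B had a pair of matches at 141 and 111. TATAAA was found in 4 of the 5, at 29 or 30 bases before the start, and in 10.7% of all promoters. SPRR1B was the promoter without it. GGGTG, letters bound by KLF factors, was in 4 of the 5 and in 54.7% of all promoters, with IVL as the exception. In SPRR1B a GGGTG that begins 114 bases before the start overlaps the TGANTCA at 111 by 2 bases. The 3 motifs were searched on both strands, and a match is a description of letters, not a bound site.

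SPRR2D (ENSG00000163216, chr1:153039725-153041931, minus strand) had 69, 114 and 68 reads in the 3 SCC25 squamocin libraries and 0 in each DMSO library. As normalized counts these were 87.7, 119 and 75.5. Set against a floor of 3 reads over the DMSO group, it was 110.0-fold higher with squamocin, which is no lower bound. The 95% counting interval of the ratio has its lower limit at 88.8. The fitted log2 fold change was 6.54 (SE 0.40, adjusted p = 1.02e-08, limma). It rests on the pseudocount of 1 and is no bound, and the gene passed the filter only through its squamocin libraries. With a pseudocount of 10 the value was 3.36, and those of SPRR1B, SPRR2A and, in SCC15, TGM1 were 1.93, 1.35 and -1.45, all still called. In SCC15 it had 3 reads in each squamocin library and 2, 1 and 0 with DMSO, a ratio of 4.23 with a 95% counting interval of 1.05 to 24.3. That gene averaged 2.19 normalized counts in SCC15 and was not tested.

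SPRR1B (ENSG00000169469, chr1:153031202-153032900, plus strand) had 17, 35 and 50 reads with squamocin in SCC25, or 21.6, 36.4 and 55.5 normalized counts. The DMSO libraries had 2, 2 and 3 reads. All squamocin libraries were above all DMSO libraries, and the ratio was 19.2 with a counting interval of 8.97 to 48.8. The log2 fold change was 3.60 (SE 0.44, adjusted p = 7.60e-06, limma).

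SPRR2A (ENSG00000241794, chr1:153056113-153057537, minus strand) had 6, 23 and 24 reads with squamocin in SCC25 and 4, 0 and 0 with DMSO. The groups did not overlap, although the lowest squamocin library was only 2 reads above the highest DMSO library. The ratio was 17.4 (counting interval 6.42 to 66.3) and the log2 fold change 3.49 (SE 0.71, adjusted p = 6.50e-04, limma). Without squamocin replicate 2 or replicate 3 the gene fell below the mean of 10 and could not be tested.

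SPRR1A (ENSG00000169474) had 11, 14 and 11 reads with squamocin in SCC25 and 0, 0 and 1 with DMSO. It stood in the same direction as the other SPRR genes, with a ratio of 47.3 and a counting interval of 7.97 to 1920, but its mean of 6.94 normalized counts left it untested. Its row in the deposited table spans chr1:152985231-152985500, 270 bases, where GENCODE gives a gene from 152984081 to 152985814, so its reads may stand for the coding exon alone. An exact two-sided permutation test of 3 against 3 libraries cannot go below p = 0.1, the value it gave for SPRR1A.

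**Figure D1:**
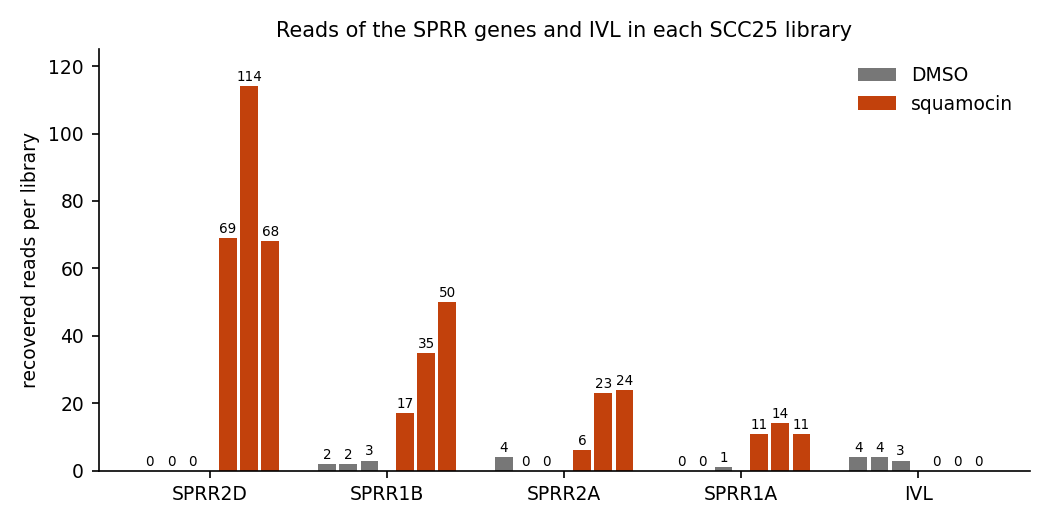
Recovered reads (vertical axis, reads per library) of 4 SPRR genes and IVL in each SCC25 library, with DMSO in grey and squamocin in orange; each bar is 1 library. SPRR2D has 69, 114 and 68 reads with squamocin and 0 with DMSO, and IVL has 4, 4 and 3 reads with DMSO and 0 with squamocin.

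Involucrin, the scaffold protein of the envelope, had its few reads in the DMSO libraries. IVL (ENSG00000163207, chr1:152908545-152911886, plus strand) had 4, 4 and 3 reads in the DMSO libraries of SCC25 and 0 in each squamocin library. Set against the floor of 3 reads over the squamocin group, this is 2.79-fold lower, which is no lower bound. The 95% counting interval of the ratio of squamocin to DMSO ran from 0 to 0.524. IVL averaged 1.58 normalized counts and was not tested, and the exact permutation test gave p = 0.1, the smallest it can give. Reads do not separate the SPRR2 genes fully: 21.5% of the 100-base windows of the SPRR2A transcript and 4.56% of those of SPRR2D occur in SPRR2B, SPRR2E or each other. The longest transcripts of SPRR2A and SPRR2D are 94.1% identical over 539 aligned bases, so the split of reads between them is uncertain. SPRR1A and SPRR1B, at 82.7% over 617 bases, share no such window with another gene. In SCC25 the SPRR1B, SPRR2A and SPRR2D genes passed the filter only through their squamocin libraries, and TGM1 in SCC15 only through its DMSO libraries. A gene that enters in this way had to differ, so the adjusted p-values of these genes support no direction. Nor do counts and medians over the members that passed.

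Cystatin A, a cysteine protease inhibitor that is built into the envelope, rose in both lines. CSTA (ENSG00000121552, chr3:122325244-122341972, plus strand) had 395, 291 and 509 normalized counts with squamocin in SCC15 and 130, 130 and 120 with DMSO. Its log2 fold change was 1.61 (SE 0.20, adjusted p = 4.38e-04, limma), and 1.42 without the third squamocin library. In SCC25 it had 1571, 1463 and 1563 normalized counts with squamocin and 505, 484 and 500 with DMSO. There the log2 fold change was 1.62 (SE 0.056, adjusted p = 6.24e-11, limma). The treatments did not overlap in either line. Equal library totals lowered the values to 1.11 in SCC15 and 1.42 in SCC25. With a correction for exonic length, chosen after the data were seen, they were 1.26 and 1.42. The calls were kept under both.

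Transglutaminase 1, the membrane-bound enzyme that forms the cross-links, fell in both lines from a low level. TGM1 (ENSG00000092295, chr14:24249114-24264432, minus strand) had 9.27, 7.98 and 4.98 normalized counts with squamocin in SCC15 and 43.5, 30.0 and 39.3 with DMSO. These are 8, 7 and 4 reads against 51, 38 and 45. The SCC15 groups lay far apart, with a log2 fold change of -2.22 (SE 0.32, adjusted p = 9.12e-04, limma) and -1.99 without the third squamocin library. In SCC25 it had 22.9, 32.2 and 36.6 with squamocin and 41.1, 60.3 and 46.0 with DMSO. The SCC25 groups did not overlap but came close, and the log2 fold change was -0.67 (SE 0.25, adjusted p = 0.0241, limma). Leaving out squamocin replicate 1 (-0.49, adjusted p = 0.0812) or DMSO replicate 2 (-0.52, adjusted p = 0.119) ended the SCC25 call.

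Periplakin, which ties the envelope to desmosomes and keratin filaments, had the highest level per kb of the members with DMSO and fell in both lines. PPL (ENSG00000118898, chr16:4882507-4960741, minus strand) had 2085, 2174 and 1515 normalized counts with squamocin in SCC15 and 3254, 3282 and 3329 with DMSO. The log2 fold change was -0.79 (SE 0.14, adjusted p = 0.00227, limma). The lowest of the squamocin libraries was the third, and without it the change was -0.63. With equal library totals it was -1.29 (adjusted p = 0.00107). In SCC25 PPL had 1651, 1624 and 2041 normalized counts with squamocin and 4620, 4580 and 4505 with DMSO, a log2 fold change of -1.37 (SE 0.073, adjusted p = 2.84e-09, limma). In each line the DMSO libraries lay close together and all squamocin libraries lay below them.

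Envoplakin, which forms a heterodimer with periplakin, fell in SCC15 and did not pass the test in SCC25. EVPL (ENSG00000167880, chr17:76004502-76027452, minus strand) had 600, 563 and 513 normalized counts with squamocin in SCC15 and 744, 647 and 746 with DMSO. The groups did not overlap, and the log2 fold change was -0.35 (SE 0.10, adjusted p = 0.0213, limma), or -0.29 without the third squamocin library. With equal library totals it was larger, at -0.85 (adjusted p = 0.00177). That SCC15 call was lost with a correction for exonic length (-0.22, adjusted p = 0.0582), chosen after the data were seen, and without DMSO replicate 1 (-0.32, adjusted p = 0.0881) or replicate 3 (-0.31, adjusted p = 0.0918). In SCC25 EVPL had 1473, 1380 and 1659 normalized counts with squamocin and 1376, 1378 and 1415 with DMSO. These groups overlapped, and the log2 fold change of 0.11 (95% interval -0.029 to 0.25, adjusted p = 0.133, limma) missed the threshold and became -0.098 with equal library totals. Without squamocin replicate 2 it passed, at 0.17 (adjusted p = 0.0224).

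**Figure D2:**
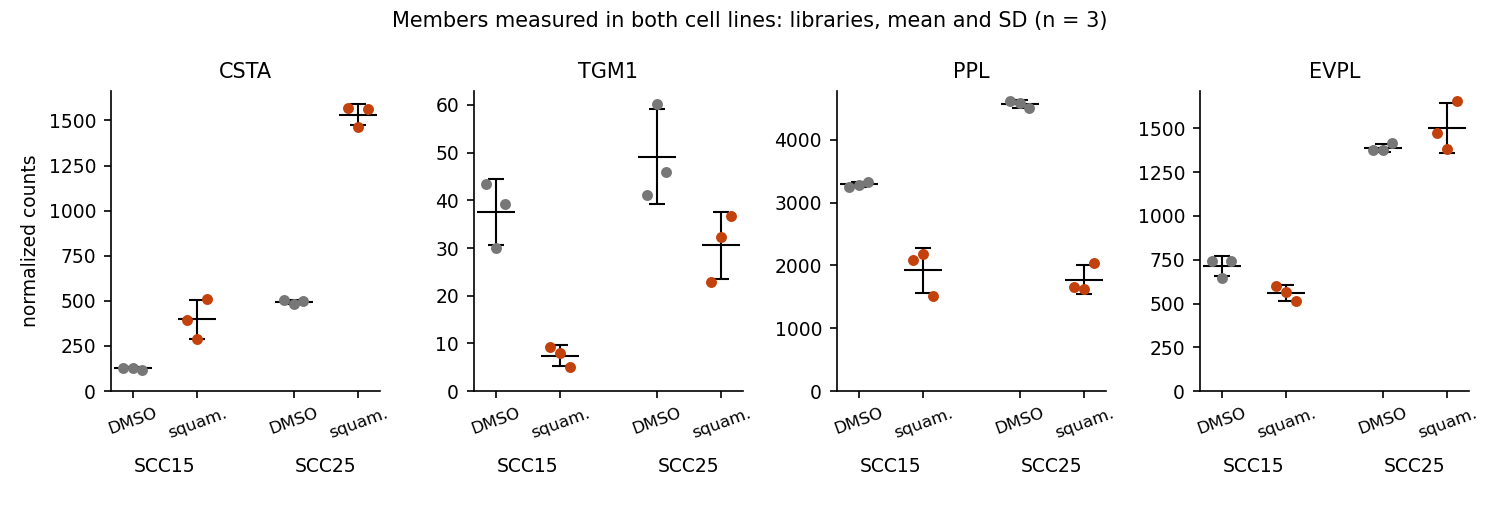
Normalized counts (vertical axis, a scale of its own in each panel from 0) of CSTA, TGM1, PPL and EVPL in the DMSO (grey) and squamocin (orange) libraries of SCC15 and SCC25; points are libraries and bars are the mean with its SD (n = 3). The tables of the lines were scaled separately, so heights compare within a line, where CSTA is higher and TGM1 and PPL are lower with squamocin.

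In SCC15, 1 of the 4 tested members was called higher and 3 lower, where 30.9% of the 15902 tested genes were higher and 30.0% were lower. In SCC25, 4 of the 7 tested members were called higher, 2 lower and 1 neither, against 38.3% and 38.5% of 16539 genes. Calls were thus common among all genes, at 61.0% in SCC15 and 76.8% in SCC25. The same shares stand beside the counts of the EDC and of the other gene lists below. The median log2 fold change of the tested members was -0.57 in SCC15 and 1.62 in SCC25, where that of all tested genes was 0.012 and -0.015. Some members passed the filter through a single treatment, as given above, so these counts and medians support no direction. With equal library totals the medians of all genes moved to -0.48 and -0.22, and 2357 genes were called higher and 8032 lower in SCC15 and 5032 and 7839 in SCC25, against 4921 and 4773, and 6335 and 6367, as deposited. Under that scaling the calls and directions of CSTA, TGM1, PPL and the 3 tested SPRR genes stayed as given.

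**Figure D3:**
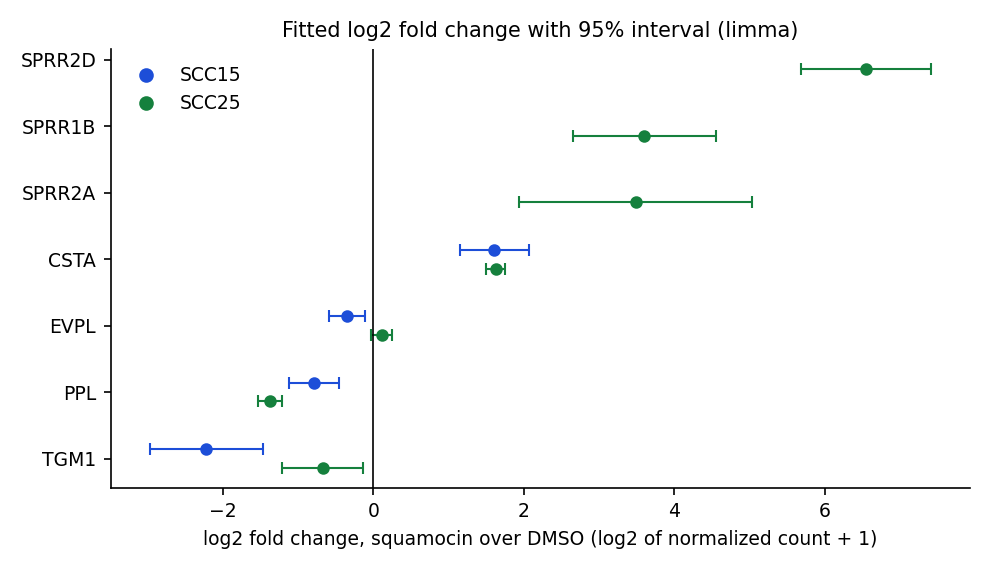
Log2 fold change of squamocin over DMSO (horizontal axis, log2 of the normalized count plus 1) for the 7 members tested, in SCC15 (blue) and SCC25 (green); points are limma estimates and bars their 95% intervals. The CSTA estimates of 1.61 and 1.62 lie together, those of TGM1 (-2.22 and -0.67) lie apart, and the SPRR genes, tested in SCC25 alone, lie between 3.49 and 6.54.

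The response of 3 of the 4 members tested in both lines differed between them, as did that of 52.2% of the 14454 genes tested in both. Among the members, TGM1 had passed the filter in SCC15 only through its DMSO libraries, so its call lends no support to a difference. For TGM1 the log2 fold change in SCC15 was lower than that in SCC25, with a difference of -1.55 (SE 0.40, 95% interval -2.42 to -0.67, adjusted p = 0.00622, limma contrast). For EVPL the difference of SCC15 minus SCC25 was -0.46 (SE 0.13, interval -0.73 to -0.18, adjusted p = 0.00844). The log2 fold changes of TGM1 and EVPL were thus lower in SCC15 than in SCC25, a direction called for 26.0% of all genes. PPL had a positive difference, as 26.1% of genes did: its fall was deeper in SCC25, by 0.58 (SE 0.17, interval 0.21 to 0.96, adjusted p = 0.0126). The PPL difference was lost with equal library totals (0.29, adjusted p = 0.307), while those of TGM1 and EVPL passed with them; over all genes 2396 were then higher and 5452 lower in SCC15, against 3779 and 3761. For CSTA the difference was -0.014 with an interval of -0.47 to 0.44 (adjusted p = 0.962), so differences of that size in either direction were not resolved.

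Per kilobase of exonic length, taken over the exons of all transcripts of a gene, the order of the members changed with the treatment. That length can exceed the longest transcript, with 1366 against 821 bases for CSTA and 7364 against 6592 for EVPL. Close ranks and overlaps below therefore depend on the length used. In SCC15 with DMSO, PPL came first at 427 ± 4.91 normalized counts per kb (SD, n = 3), before EVPL at 96.7 ± 7.68 and CSTA at 92.7 ± 4.43, whose ranges overlapped, then TGM1 at 10.1 ± 1.84 and SPRR2D at 0.791 ± 0.812. With squamocin CSTA, at 213 to 373, and PPL, at 197 to 282, overlapped at the top, and EVPL followed at 75.9 ± 5.99. SPRR2D, at 3.37 ± 0.158, then lay above TGM1, at 1.98 ± 0.590, both on few reads.

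In SCC25 with DMSO the order was PPL at 593 ± 7.58 per kb, CSTA at 363 ± 7.93, EVPL at 189 ± 3.02 and TGM1 at 13.2 ± 2.66, none of which overlapped. SPRR1B followed at 3.27 ± 0.899, and SPRR2A, IVL, SPRR1A and SPRR2D were between 0 and 1.59. With squamocin CSTA led at 1071 to 1150, and PPL (230 ± 30.3) and EVPL (204 ± 19.3) overlapped below it. SPRR2D (89.3 ± 21.1) and SPRR1B (61.1 ± 27.5) overlapped, as did SPRR1B and SPRR1A (50.3 ± 4.53) and SPRR1B and SPRR2A (28.7 ± 15.2). TGM1 came below all of these at 8.19 ± 1.88. The level of SPRR1A was taken over its deposited span of 270 bases, and levels were not set across the lines because their tables were scaled separately.

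The position of the SPRR genes can be read against the rest of the EDC, from S100A10 to S100A1 (chr1:151982915-153632039). Of 24 tested genes there in SCC25, 11 were called higher and 10 lower, where 38.3% and 38.5% of all tested genes were. Of those higher, 3 were SPRR1B, SPRR2D and SPRR2A, which passed the filter only through their squamocin libraries. Others, such as S100A7A, S100A12, TCHH and PGLYRP3, passed only through their DMSO libraries, so these counts support no direction. Of 17 tested in SCC15, 8 were higher and 4 lower (8 and 8 with equal library totals), and none was a member. Of all tested genes in SCC15, 30.9% were higher and 30.0% lower. The S100 genes, which encode calcium-binding proteins, made up 15 of those tested in SCC25, with 7 higher and 6 lower, and 13 in SCC15, with 7 higher and 3 lower (5 lower with equal library totals). S100A9, the nearest S100 gene to the right of the SPRR genes that was tested in both lines, fell by 7.15 on the log2 scale in SCC25 and by 2.31 in SCC15. PGLYRP3 and PGLYRP4, peptidoglycan recognition genes between the SPRR genes and S100A9, had log2 fold changes of -3.59 and -4.63 in SCC25. PGLYRP3 averaged 1.48 normalized counts with squamocin and 20.3 with DMSO. It passed the filter only through its DMSO libraries, so its value depends on the pseudocount and supports no direction. S100A9, PGLYRP3 and PGLYRP4 were named after their values were seen.

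**Figure D4:**
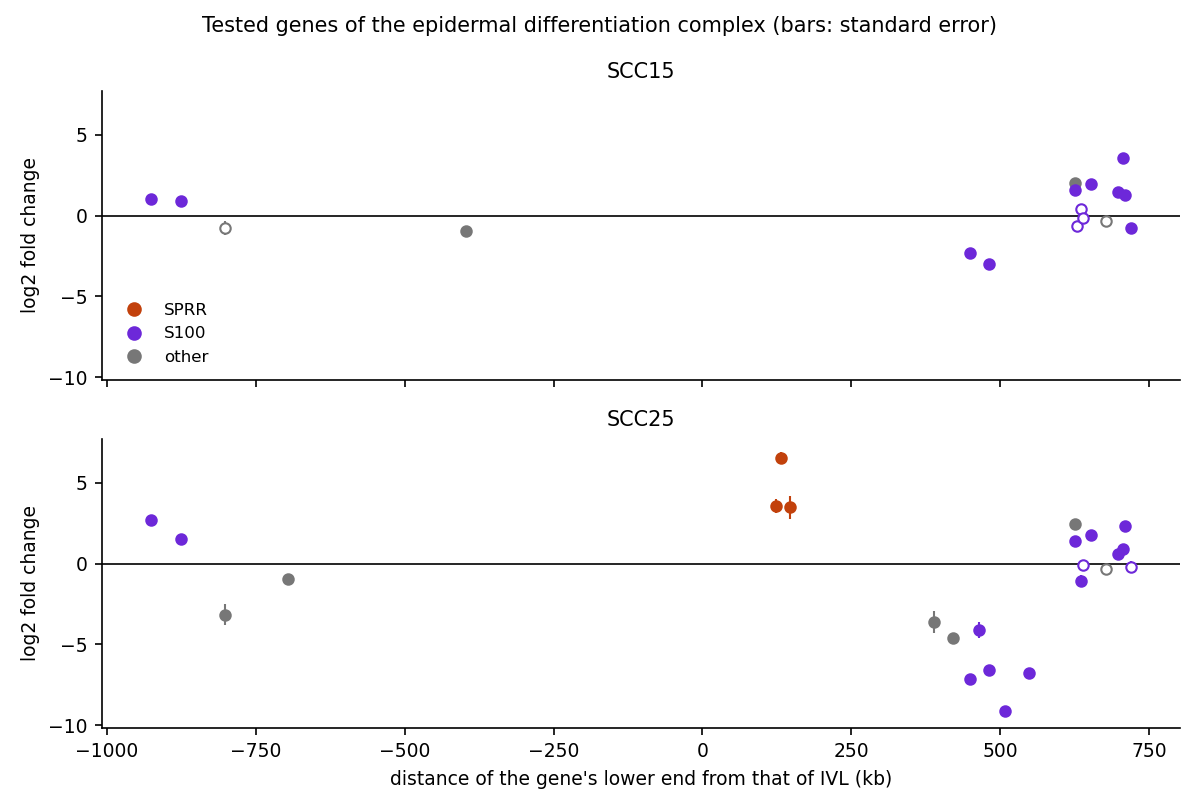
Log2 fold change of squamocin over DMSO (vertical axis) of the tested genes of the epidermal differentiation complex against the distance of each gene's lower end from that of IVL (horizontal axis, kb), in SCC15 and SCC25; filled points passed the test, open points did not, and bars are standard errors. The SPRR genes (orange), tested in SCC25 alone, lie between 3.49 and 6.54, with S100A9 at -7.15 to their right.

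The other structural genes of the envelope and the EDC, 40 symbols that include loricrin, filaggrin and the LCE genes, were mostly absent or at a few reads. Only 3 were tested in SCC15, of which LCE5A was called lower, and 4 in SCC25, of which HRNR, TCHH and SCEL were called lower. In SCC25 TCHH averaged 2.47 normalized counts with squamocin and 24.0 with DMSO. It passed the filter only through its DMSO libraries, so its call supports no direction. SCEL, which encodes sciellin, a precursor of the envelope, had 22, 19 and 14 reads with squamocin in SCC25 and 116, 87 and 95 with DMSO. The neighbours SPRR2E and SPRR2F had no more than 1.77 normalized counts in any SCC25 library. These genes were named after their values were seen.

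Among 14 other transglutaminase and lipid envelope genes, 1 was higher and 1 lower of 7 tested in SCC15, and 4 were higher and 2 lower of 8 tested in SCC25. ALOX12B and ALOXE3, lipoxygenases that prepare ceramides for attachment to the envelope, rose in SCC25 by 2.29 (SE 0.18) and 1.90 (SE 0.13) on the log2 scale. TGM2, the tissue transglutaminase, had 2134, 2119 and 2356 normalized counts with squamocin in SCC25 and 5729, 5801 and 5659 with DMSO, a log2 fold change of -1.38 (SE 0.047). In SCC15 SPTLC3, a subunit of serine palmitoyltransferase, had a log2 fold change of -2.40 (SE 0.17). UGCG, the glucosylceramide synthase, rose in SCC15 by 0.58 (SE 0.080), a call lost with equal library totals (0.080).

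Of 23 epidermal proteases and inhibitors, 6 were higher and 3 lower of 13 tested in SCC15, and 4 were higher and 13 lower of 19 tested in SCC25. CSTB, which encodes cystatin B, rose in SCC15 by 1.58 (SE 0.14). PI3, which encodes elafin, an inhibitor that is itself cross-linked into the envelope, rose in SCC15 by 1.37 (SE 0.24). The PI3 value was 1.08 without the third squamocin library and 0.75 with a correction for exonic length. SERPINB2, an inhibitor of plasminogen activators, rose by 1.36 (SE 0.14) in SCC15 and by 5.16 (SE 0.21) in SCC25, from 13.7, 7.20 and 10.6 to 365, 410 and 424 normalized counts. SERPINB3 and SERPINB4, the squamous cell carcinoma antigens, had log2 fold changes of -2.34 (SE 0.088) and -2.66 (SE 0.059) in SCC25. As near-identical copies, their reads may be split between them.

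Of 9 plakin relatives and partners, 1 was higher and 2 lower of 6 tested in SCC15, and 3 were higher and 3 lower of 8 tested in SCC25. PKP1, a plakophilin of desmosomes, rose in SCC15 by 0.95 (SE 0.14), a call lost with equal library totals (0.45). MACF1, a large plakin, had -0.82 (SE 0.29) in SCC15, where the third squamocin library had 1606 normalized counts against 3609 and 3442 in the other two, and -0.44 without that library. PPHLN1, periphilin, had -0.33 (SE 0.099) there. Both calls were lost with a correction for gene span, at -0.50 and -0.036, with one for exonic length, at -0.37 and -0.086, and without single libraries, which were each of the DMSO replicates for MACF1 (adjusted p from 0.0884 to 0.102) and squamocin replicates 1 and 2 and DMSO replicates 2 and 3 for PPHLN1 (0.0628 to 0.0986). With equal library totals they were -1.32 and -0.83. In SCC25 DSC2, a desmosomal cadherin, and DST, dystonin, rose by 0.56 (SE 0.085) and 0.46 (SE 0.042), and KAZN, kazrin, which binds periplakin, had -0.45 (SE 0.068).

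Of 29 regulators of keratinocyte differentiation, 10 were higher and 6 lower of 22 tested in SCC15, and 14 were higher and 7 lower of 25 tested in SCC25. CEBPB, a basic leucine zipper factor, rose by 2.04 (SE 0.18) in SCC15 and by 3.01 (SE 0.041) in SCC25. ELF3 and EHF, epithelial Ets factors, moved in opposite directions in SCC15, with log2 fold changes of 3.40 (SE 0.17) and -2.58 (SE 0.12). NOTCH3 had -2.38 (SE 0.061) in SCC25. For the AP-1 subunits, whose letters stand in the promoters above, 5 of 7 were higher and 2 lower in each line. Of all tested genes, 30.9% were higher in SCC15 and 38.3% in SCC25. With equal library totals 4 subunits were higher in SCC25. The subunits were not the same in the lines: FOSB had 1.68 in SCC15 and -0.91 in SCC25, and FOSL2 had -0.48 and 0.24. These values were chosen after they were seen, and FOS was lower in both lines. FOS had -4.22 (SE 0.078) in SCC25, with 211, 187 and 239 normalized counts against 4023, 3814 and 4048, while JUN, named after its values were seen, rose by 1.38 (SE 0.053).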

How the data were processed

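The authors aligned reads to GRCh38 with HISAT2 2.0.5, counted them per gene with featureCounts 1.5.0-p3 and deposited, separately for each cell line, a signal that is the read count divided by 1 size factor per library. The deposited tables also hold the authors' group means and their own log2 fold changes and p-values, which were not used. Whole reads were recovered from the smallest value of each library (100% of values whole within 0.01), 16665563 to 22748845 per library, and counting intervals and floors cover counting error only. The SCC25 values are headed fpkm, but each was a whole number of reads times 1 factor per library, as in SCC15. They were therefore taken as normalized counts. Tests were run with limma 3.58.1 under R 4.3.3 on log2(normalized count + 1) (trended eBayes, two-sided, Benjamini-Hochberg over all tested genes, threshold 0.05, mean of at least 10). They called 9694 genes in SCC15 and 12702 in SCC25. On the recovered reads edgeR 4.0.16 called 9880 and 12804, and DESeq2 1.42.0 called 9964 and 12196. Scripts were tested on simulated data. There, false calls made up 3.41% of the limma calls in SCC15 and 4.37% in SCC25. The share was 7.62% for the limma difference between the lines. For DESeq2 it was 16.4% in SCC15 and 5.05% in SCC25. The alternatives were pseudocounts of 0.1 and 10, 2 other filters, TMM scaling, equal library totals, edgeR, DESeq2, a replicate block, gene span, each library left out and, added after the data were seen, exonic length (GENCODE release 44). Members and lists were chosen with earlier results of these data known. From each other list up to 3 genes per line were named, those with the largest change among called genes averaging 100 or more whose treatments did not overlap, and exceptions are stated. Coordinates are those of the deposited tables on GRCh38, and promoters are those of RefSeq on GRCh38.p14.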

Additional observations from a re-analysis of the deposited data

Results flagged for a closer look

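The difference between the lines' responses passed its own test for 3 members. TGM1 had passed the filter in SCC15 only through its DMSO libraries, so its test lends no support to a difference. For TGM1 the log2 fold change of SCC15 minus that of SCC25 was -1.55, with 4 to 8 reads in the SCC15 squamocin libraries behind it. For PPL it was 0.58 and for EVPL -0.46, and both genes are in the class of 5 kb and over in exonic length, in which the third SCC15 squamocin library lay below the other two; without that library the differences were 0.75 and -0.40. The part of that library's length pattern in the differences was not tested further.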

How the results depend on the processing

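Of the single members' values under the alternatives, 257 kept their direction and side of the threshold, 6 lost the call, 1 gained it and 8 changed sign, and for the other named genes these were 377 and 13, with none of the last kinds. The sign changes were those of EVPL in SCC25, at -0.098 with equal library totals, and of the CSTA difference between the lines (-0.014), at 0.018 with DESeq2 and wherever it was above 0 with a library left out, over a range of -0.21 to 0.19. With equal library totals the genes of the other lists called lower in SCC15 went from 13 to 25 (those called higher from 18 to 14), the EDC genes called lower there from 4 to 8, and the members with a higher response in SCC15 from 1 to 0. A correction for exonic length gave 7 EDC genes lower in SCC15. Requiring at least 10 in every library, which leaves fewer genes tested, gave 1 member higher and 4 EDC genes lower in SCC25 and 1 member with a lower response in SCC15. With single libraries left out, the other lists had 9 to 20 genes lower in SCC15 (20 without squamocin replicate 3), the EDC 2 to 5 lower there (2 without squamocin replicate 2, DMSO replicate 1 or DMSO replicate 2), and members lower in SCC25 were 1 to 2. The deposited totals of normalized counts in SCC15 were 20467856 to 24626253 with squamocin and 15466464 to 15535484 with DMSO. In SCC25 they were 20917114 to 21265099 and 18245022 to 18333723. Equal library totals by construction lower the squamocin values against those of DMSO. The causes of the other changes listed here were not tested, apart from the tests with fewer genes. Same-numbered libraries did not deviate together (correlations from -0.051 to 0.0078), so the numbers were not taken as pairs, and with the replicate block 1 member was higher and 3 were lower in SCC15 and 4 and 2 in SCC25, as without it. With 3 libraries per group and few reads for the SPRR genes, TGM1 and IVL, depth limits how closely their folds are known.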
